A study of Mus musculus with 20 samples.

Results

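Transcripts of 7 subunit genes of the GABA-A receptor, Gabra2, Gabra3, Gabra4, Gabra5, Gabrg1, Gabrg3 and Gabrd, were followed across postnatal development of hippocampal granule cells. The genes were chosen by symbol, as 7 of the 32245 gene symbols in the table of counts. All 7 passed the filter on low counts, which 15373 genes passed in all. The cells came from the hippocampus of mice of the genotype Rbp4-Cre:RiboTag. In such mice Cre recombination, here in cells with Rbp4-Cre activity, puts an HA tag on the ribosomal protein RPL22, and tagged ribosomes are pulled from a lysate with anti-HA beads. All libraries share this genotype, so each value is a level in the RNA of tagged ribosomes, and no unselected hippocampal RNA was used here. The 20 libraries came from postnatal day 5 (P5, 5 libraries) and from P7, P10, P15, P21 and P28 (3 libraries each). By the batch dates in the labels, 3 of the P5 libraries belong with P10 and P15 (batch A), the other 2 P5 libraries with P7 (batch B), and P21 with P28 (batch C). In a comparison of P21 or P28 with an earlier age, the age and batch C cannot be told apart.

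GABA-A receptors are chloride channels built as a ring of alpha and beta subunits, usually with a gamma or a delta subunit, and they open when GABA binds. Receptors with delta lie outside synapses and carry the tonic GABA current for which dentate granule cells are known, there mostly in combination with alpha4. The alpha5 subunit is abundant in the hippocampus and is also found largely outside synapses, while alpha2 and alpha3 occur at synapses and are prominent early in brain development.

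Most subunit genes lie in clusters, and the members fell into 4 places on mm10. On chromosome 5 the genes Gabrg1, Gabra2 and Gabra4, all on the minus strand, stood next to Gabrb1 on the plus strand within 1398.0 kb (70751047 to 72149037). On chromosome 7 Gabrg3 (56716465 to 57387188) stood next to Gabra5 (57407672 to 57510059), both on the minus strand. On chromosome X Gabra3 lay between Gabre and Gabrq (72255999 to 72842602), and Gabrd lay apart from the other members on chromosome 4 (155384980 to 155398112). Promoter windows of RefSeq (GRCm38.p6, 250 bases before to 50 bases after a start) were matched by symbol for 6 of the 7 members, all but Gabrd. For each gene of the chromosome 5 cluster 1 window is printed, because these neighbours moved in different directions with age. Capitals mark GC boxes (GGGCGG on either strand), which 35.7% of all 32851 windows held. The windows were also searched on both strands for an Egr site (GCGTGGGCG, in 0.612% of all windows), a CRE (TGACGTCA, in 1.79%) and a TATA box (TATAAA, in 13.6%), and those letters were in none of the 4 printed windows. No marked matches overlapped.
Gabrg1, chr5:70842568-70842867, minus strand: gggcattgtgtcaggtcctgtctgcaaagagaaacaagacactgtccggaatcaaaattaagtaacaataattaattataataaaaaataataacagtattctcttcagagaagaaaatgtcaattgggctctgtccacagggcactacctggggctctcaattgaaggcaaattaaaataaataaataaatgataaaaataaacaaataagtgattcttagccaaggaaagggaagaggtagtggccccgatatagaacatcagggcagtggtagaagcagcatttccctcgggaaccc
Gabra2, chr5:71095800-71096099, minus strand: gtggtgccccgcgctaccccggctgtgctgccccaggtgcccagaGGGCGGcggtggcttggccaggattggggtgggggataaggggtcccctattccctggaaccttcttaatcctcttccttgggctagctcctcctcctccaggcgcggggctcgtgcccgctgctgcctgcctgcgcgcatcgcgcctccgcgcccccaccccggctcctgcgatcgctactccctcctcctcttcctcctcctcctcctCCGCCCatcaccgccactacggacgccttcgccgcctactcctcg
Gabra4, chr5:71658259-71658558, minus strand: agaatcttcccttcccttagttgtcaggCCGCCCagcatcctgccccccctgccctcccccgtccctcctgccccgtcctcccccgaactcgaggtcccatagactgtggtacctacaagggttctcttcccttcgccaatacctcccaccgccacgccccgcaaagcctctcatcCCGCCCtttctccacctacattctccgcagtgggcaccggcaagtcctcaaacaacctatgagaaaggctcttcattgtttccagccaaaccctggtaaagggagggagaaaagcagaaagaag
Gabrb1, chr5:71657671-71657970, plus strand: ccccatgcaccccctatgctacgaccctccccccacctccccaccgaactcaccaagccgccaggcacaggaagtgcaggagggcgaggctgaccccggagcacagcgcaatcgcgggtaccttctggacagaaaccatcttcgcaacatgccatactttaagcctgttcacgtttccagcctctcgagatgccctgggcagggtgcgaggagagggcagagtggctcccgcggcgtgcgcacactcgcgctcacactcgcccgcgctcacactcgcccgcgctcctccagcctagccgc
The Gabrg1 window was 38.3% G and C with 3 CpG pairs, and 7.4% of all windows had a lower GC content. The Gabra2 window held 70.0% G and C, 25 CpG pairs and 2 GC boxes. Gabra4 had 58.7%, 12 CpG pairs and 2 GC boxes, and the printed Gabrb1 window had 66.0% and no GC box. Gabrb1 has another start, whose window (71699682 to 71699981) is not printed. It had 50.3% G and C, 9 CpG pairs and none of the 4 motifs. The Gabrb1 start of the printed window lay 387 bases from the Gabra4 start, inside the region transcribed from Gabra4, so these genes overlap head to head. Among the other members, Gabra3 held a TATA box in the windows of both its starts, Gabrg3 held 1 GC box, and the Gabra5 window held none of the 4 motifs.

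Libraries held 15.9 to 24.9 M counts. In CPM (counts scaled to a library total of 1 M), a count of 3 is 0.122 to 0.181. All 10 granule cell markers were detected at every age, with Prox1, a transcription factor that defines these cells, at 480 to 597 CPM on average. The 10 summed to 2811 to 2897 CPM at P28 and 1668 to 1780 at P5. Of these, 8 rose and 0 fell at P28 against P5 (edgeR, adjusted p under 0.05). Markers of other cells were present too, and their sums and single genes did not always move alike. The 12 interneuron markers summed to 263 to 292 CPM at P28 and 196 to 235 at P5, with Gad1 alone at 193 CPM at P28 and 87.3 at P5 on average, while 2 of the 12 rose and 6 fell at P28 against P5 (edgeR, adjusted p under 0.05). The 10 astrocyte markers summed to 917 to 1157 CPM at P28 and 670 to 718 at P5, with Slc1a2 alone at 720 CPM at P28 and 339 at P5, while 3 of the 10 rose and 6 fell. The 8 oligodendrocyte markers, all of which rose, summed to 858 to 1020 CPM at P28 and 96.6 to 122 at P5. All 6 Cajal-Retzius cell markers fell, with sums of 16.2 to 26.4 CPM at P28 and 116 to 159 at P5, as did all 8 endothelial and mural markers, with 23.0 to 27.1 CPM at P28 and 84.8 to 152 at P5. Of 6 markers of oligodendrocyte precursors 5 fell, with sums of 40.1 to 53.6 CPM at P28 and 96.8 to 177 at P5. Of 10 listed markers of CA pyramidal cells 9 were found, and they summed to 825 to 990 CPM at P28 and 672 to 842 at P5, with 5 higher and 3 lower. The 8 markers of newborn neurons, all of which fell, summed to 767 to 802 CPM at P28 and 4228 to 4733 at P5. Fewer cells of a type and less RNA per cell cannot be told apart in such libraries, and the part of these marker shifts in the values that follow was not tested. The spectrin genes Sptan1 and Sptbn1 together took 5.06 to 6.48% of all counts at P7, against 0.387 to 1.64% at P5, and 0.925 to 3.03% at the ages from P10 on. Each test was therefore repeated with their level as a covariate. That level itself differed between ages, so this fit cannot fully tell it apart from age. A call lost in it can go with a wider error and an unchanged log2 change.

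Per kilobase of exon, the scale on which levels of different genes can be compared, Gabra5 was the most abundant of the 7 at both ends of the series. Its level averaged 61.6 ± 1.65 CPM per kb at P28 and 111 ± 6.06 at P5 (SD, n = 3 and 5). At P28 it was followed by Gabra4 (29.2 ± 0.65 CPM per kb), Gabrd (24.4 ± 0.82), Gabra2 (11.7 ± 0.68), Gabra3 (6.17 ± 2.87), Gabrg3 (0.80 ± 0.05) and Gabrg1 (0.41 ± 0.03), and no neighbours in that order had overlapping libraries. At P5 the order after Gabra5 was Gabra3 (14.9 ± 2.65 CPM per kb), Gabra4 (11.1 ± 0.43), Gabra2 (7.57 ± 1.23), Gabrd (4.86 ± 0.90), Gabrg3 (2.25 ± 0.16) and Gabrg1 (0.94 ± 0.15), and there Gabra3 and Gabra4 overlapped. In CPM, the level differed between the 6 ages for all 7 members in edgeR's quasi-likelihood test (Benjamini-Hochberg adjusted p = 1.2e-15 for Gabrd to 0.00865 for Gabra3), as it did for 79.7% of all genes tested. With the spectrin covariate Gabra3 did not pass (adjusted p = 0.294).

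**Figure D1:**
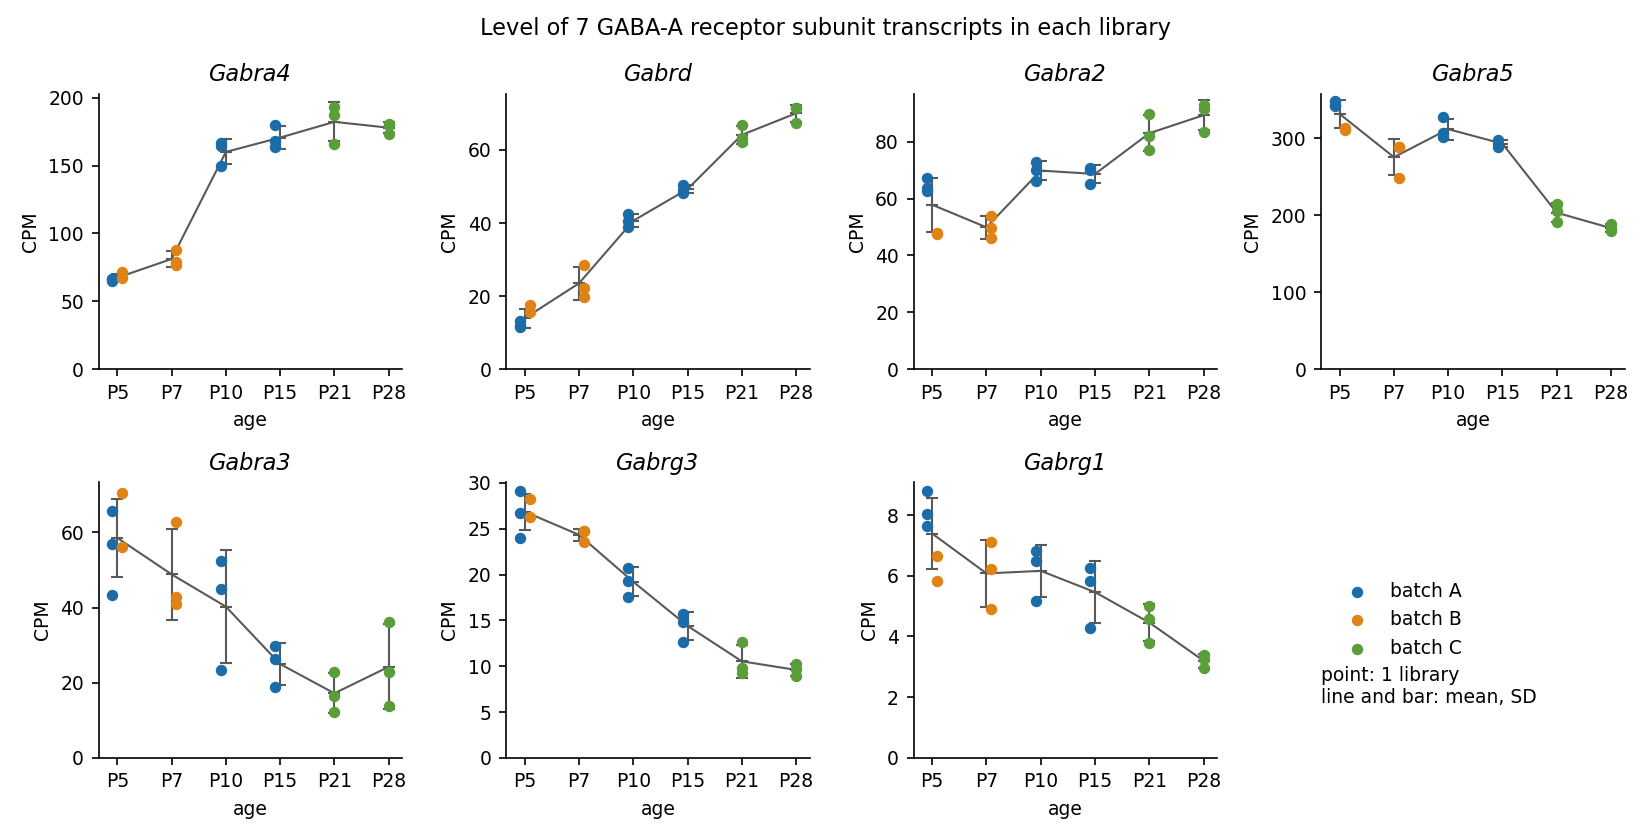
Level of the 7 members in CPM (linear axes from 0) in each library at 6 ages, with points coloured by batch and the mean and SD of an age as a line with bars. Gabra4, Gabrd and Gabra2 are higher in all P28 libraries than in all P5 libraries, Gabra5, Gabra3, Gabrg3 and Gabrg1 are lower, and Gabra2 at P5 lies lower in batch B than in batch A.

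Gabrd, which encodes the delta subunit, had the largest change of the 7. Its libraries held 11.4, 13.3 and 11.9 CPM at P5 in batch A and 17.5 and 15.8 at P5 in batch B. The later ages had 28.6, 22.2 and 19.8 CPM at P7, and 40.6, 42.5 and 38.9 at P10. Gabrd then held 48.3, 49.1 and 50.5 CPM at P15, 63.2, 66.9 and 62.3 at P21, and finally 71.4, 71.3 and 67.3 at P28. No libraries of neighbouring ages overlapped, so each age lay wholly above the one before it. The fitted log2 change was 2.01 (SE 0.10) for P15 against P5, which lies inside batch A, and 2.52 (SE 0.10) for P28 against P5, a 5.73-fold higher level (edgeR adjusted p = 7.37e-15 and 5.24e-17). Only 2.09% of all genes tested had a higher log2 change at P15 and 1.75% at P28. In single steps Gabrd rose at P7 against P5 (log2 change 0.50, SE 0.11, edgeR adjusted p = 0.00357, inside batch B), at P10 against P7 (1.24, SE 0.15, adjusted p = 4.62e-07) and at P21 against P15 (0.38, SE 0.09, adjusted p = 0.00162). The P7 step was lost without P5 batch B replicate 3 (log2 change 0.42, edgeR adjusted p = 0.0639) and with the spectrin covariate (0.31, adjusted p = 1). For P15 against P10 the log2 change was 0.28 (SE 0.09, edgeR adjusted p = 0.0674), and for P28 against P21 it was 0.13 (SE 0.08, adjusted p = 0.556). Between the batches at P5, where 10.1% of all genes differed (6.65% higher and 3.42% lower in batch B), Gabrd was higher in batch B than in batch A (log2 difference 0.45, SE 0.11, edgeR adjusted p = 0.0122).

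Gabra4, which encodes the alpha4 subunit that partners with delta in these cells, was the other member that rose strongly. It had 65.2, 66.3 and 66.5 CPM at P5 in batch A, 67.4 and 71.9 at P5 in batch B, 87.8, 77.0 and 78.9 at P7, and 149.5, 166.5 and 164 at P10. Gabra4 then held 180, 168 and 164 CPM at P15, 193, 187 and 166 at P21, and finally 180, 173 and 180 at P28. The widest gap lay between P7 and P10, P7 also lay wholly above P5, and from P10 on the libraries of neighbouring ages overlapped. The log2 change was 1.06 (SE 0.10) for P10 against P7 and 1.28 (SE 0.06) for P10 against P5 (edgeR adjusted p = 1.31e-08 and 3.05e-14). P10 and P7 are in different batches and were joined through the P5 libraries of both. From P10 on no step passed, with log2 changes of 0.09 (SE 0.06) for P15 against P10, 0.09 (SE 0.06) for P21 against P15 and -0.03 (SE 0.06) for P28 against P21 (edgeR adjusted p = 0.426, 0.271 and 0.856). The small rise at P7 against P5 (log2 change 0.22, SE 0.07, edgeR adjusted p = 0.0465) was at the edge of the threshold and was lost in 17 of the 20 fits that left out a library, with adjusted p-values up to 0.366, the highest of them without P5 batch B replicate 1.

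The courses of the 2 genes were set side by side over the equal spans P5 to P10 and P10 to P15, a comparison inside batch A that was added after seeing the data. The later step minus the earlier one was -1.19 (SE 0.11) on the log2 scale for Gabra4 and -1.46 (SE 0.16) for Gabrd (edgeR adjusted p = 8.89e-09 and 1.19e-07), so both rose more over the earlier span. These 2 members were the ones of the 7 that passed, both lower, where 36.8% of all genes passed (15.4% higher and 21.4% lower). The level of Gabrd per kb was 0.83 ± 0.04 of that of Gabra4 at P28 and 0.44 ± 0.07 of it at P5 (SD, n = 3 and 5).

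Gabra2, which encodes the alpha2 subunit found at synapses and at the axon initial segment, moved late. It had 62.6, 67.2 and 63.9 CPM at P5 in batch A and 47.6 and 47.8 at P5 in batch B, then 46.0, 49.6 and 54.0 at P7, and 66.3, 70.2 and 73.0 at P10. Gabra2 then held 70.7, 65.0 and 70.2 CPM at P15, 89.6, 77.1 and 82.1 at P21, and finally 93.0, 91.5 and 83.3 at P28. The P5 libraries of batch B lay with those of P7 of the same batch, and those of batch A lay next to P10 and P15. At P5 Gabra2 was lower in batch B than in batch A (log2 difference -0.44, SE 0.08, edgeR adjusted p = 6e-04). The change was 0.09 (SE 0.07) on the log2 scale for P15 against P5 and did not pass (edgeR adjusted p = 0.26). It was 0.27 (SE 0.07) for P21 against P15 and 0.47 (SE 0.07) for P28 against P5 (adjusted p = 0.00309 and 1e-06), both across batches A and C. Without the term for batch, P15 against P5 passed (0.25, edgeR adjusted p = 0.0285) and P21 against P15 did not (0.27, adjusted p = 0.0697). With the spectrin covariate P15 and P10 against P5 passed as well (0.47 and 0.44, edgeR adjusted p = 0.0386 and 0.025). Without the P5 libraries of batch B, P7 against P5, then across batches, turned to a fall (-0.37, edgeR adjusted p = 0.000189), against 0.07 (SE 0.08) inside batch B.

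Gabra5, which encodes alpha5, stayed the most abundant alpha transcript and fell mainly after P15. It had 342, 343 and 348 CPM at P5 in batch A and 313 and 310.2 at P5 in batch B, 288, 249 and 289 at P7, and 301, 327 and 307 at P10. Gabra5 then held 298, 289 and 292 CPM at P15, 214, 205 and 191 at P21, and finally 189, 179 and 182 at P28. The libraries of P21 and of P28 lay below every earlier library. The log2 change was -0.53 (SE 0.06) for P21 against P15 and -0.91 (SE 0.06) for P28 against P5, 0.53 of the P5 level (edgeR adjusted p = 3.76e-07 and 6.72e-13), both across batches. Inside batch A Gabra5 fell by 0.23 (SE 0.06) on the log2 scale at P15 against P5 and by 0.14 (SE 0.06) at P10 against P5 (edgeR adjusted p = 0.00103 and 0.0328). Both were lost with the spectrin covariate (-0.14 and -0.07, edgeR adjusted p = 0.576 and 0.769). The P10 call was lost in 5 of the 20 fits without a library (adjusted p up to 0.112), namely without any of the P5 batch A libraries and without P10 replicate 1 or 3. P7 against P5 gave -0.18 (SE 0.06, edgeR adjusted p = 0.0719), although the P7 libraries lay below all P5 libraries.

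Gabrg3, which encodes the gamma3 subunit, fell at a steadier pace. Its libraries had 24.0, 29.1 and 26.7 CPM at P5 in batch A, 28.2 and 26.2 at P5 in batch B, 24.7, 24.7 and 23.6 at P7, and 19.3, 17.6 and 20.7 at P10. Gabrg3 then held 15.7, 14.8 and 12.7 CPM at P15, 9.24, 9.78 and 12.6 at P21, and finally 8.94, 9.64 and 10.2 at P28. P10, P15 and P21 each lay wholly below the age before, and P28 overlapped with P21. Gabrg3 fell by 0.47 (SE 0.10), 0.89 (SE 0.11) and 1.47 (SE 0.11) on the log2 scale at P10, P15 and P28 against P5 (edgeR adjusted p = 0.000443, 9.26e-08 and 1.59e-11). The P10 call was lost with the spectrin covariate (-0.47, edgeR adjusted p = 0.188). It was the single member called at P15 against P10 (log2 change -0.42, SE 0.11, edgeR adjusted p = 0.0287). That call was lost in 4 of the 20 fits without a library (adjusted p up to 0.186), namely without P10 replicate 1 or 3 and without P15 replicate 2 or 3, and with the spectrin covariate (adjusted p = 0.0715). P21 against P15 gave -0.45 (SE 0.11, edgeR adjusted p = 0.00418).

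Gabrg1, which encodes gamma1, was the scarcest member, with 51 to 160 counts per library. It had 8.80, 8.04 and 7.63 CPM at P5 in batch A, 5.83 and 6.66 at P5 in batch B, 6.22, 7.10 and 4.92 at P7, and 6.81, 5.18 and 6.50 at P10. Gabrg1 then held 4.29, 5.83 and 6.26 CPM at P15, 4.59, 3.79 and 4.99 at P21, and finally 3.40, 3.25 and 2.96 at P28. The P28 libraries lay below all others, and those of neighbouring ages up to P21 overlapped. Gabrg1 fell by 0.58 (SE 0.17) on the log2 scale at P15 against P5 and by 1.35 (SE 0.18) at P28 against P5 (edgeR adjusted p = 0.00415 and 2.94e-07). With the spectrin covariate P15 against P5 was -0.72 and P10 against P5 was -0.52, and neither passed (edgeR adjusted p = 0.313 and 0.384). The call for P10 against P5 (-0.40, SE 0.17, edgeR adjusted p = 0.0394) was lost in 3 of the 20 fits without a library (adjusted p up to 0.154), which left out P5 batch A replicate 1 or 2 or P10 replicate 2. No step between neighbouring ages passed.

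Gabra3, which encodes alpha3, spread widely between libraries of an age, with a coefficient of variation of 46.6% at P28 and 37.4% at P10, where that of Gabra4 was 2.23% and 5.75%. It had 43.3, 57.0 and 65.7 CPM at P5 in batch A, 70.5 and 56.2 at P5 in batch B, 40.9, 62.7 and 42.9 at P7, and 45.0, 23.4 and 52.4 at P10. Gabra3 then held 29.9, 18.7 and 26.3 CPM at P15, 12.2, 16.5 and 22.8 at P21, and finally 22.9, 36.1 and 13.7 at P28. All libraries of P15, P21 and P28 lay below those of P5, whereas P7 and P10 overlapped with P5. It fell by 1.15 (SE 0.36) on the log2 scale at P15 against P5 and by 1.18 (SE 0.36) at P28 against P5 (edgeR adjusted p = 0.0133 and 0.00998). Without P15 replicate 2 the P15 change was -0.99 (edgeR adjusted p = 0.0562), and with the spectrin covariate the changes were -0.19 and -0.25 (adjusted p = 0.924 and 0.875). P10 against P5 gave -0.46 (SE 0.35, edgeR adjusted p = 0.278).

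The libraries in which Gabra3 stood apart were set beside other genes. Gabrq, which encodes the theta subunit and lies next to Gabra3 on chromosome X, had 3.62, 1.75 and 4.57 CPM in the P10 libraries, in which Gabra3 had 45.0, 23.4 and 52.4, and 1.04, 2.57 and 1.04 at P28. Replicate 2 was thus the lowest at P10 and the highest at P28 for both genes. Gabrq fell by 1.69 (SE 0.42) on the log2 scale at P15 against P5 and by 2.24 (SE 0.45) at P28 against P5 (edgeR adjusted p = 0.00246 and 0.000311), calls that were lost with the spectrin covariate (adjusted p = 0.637 and 0.357). The 3 genes whose pattern over the 20 libraries was most like that of Gabra3, among 9264 genes with a mean of at least 10 CPM, were Timp2 (Pearson's r of log2 CPM 0.98), which encodes a metalloproteinase inhibitor, Npr3 (0.96), a natriuretic peptide receptor, and Met (0.96), the receptor of hepatocyte growth factor. Timp2 had 499, 360.1 and 549 CPM at P10 and Met had 12.1, 3.85 and 13.3. These genes were chosen for their likeness over the same libraries, so that they share the high and low libraries of Gabra3 follows from the choice. The 9 CA pyramidal markers summed to 1248, 758 and 1140 CPM in the same P10 libraries, and to 990, 825 and 957 at P28. Their sum was lowest in replicate 2 at both ages, as Gabra3 was at P10, whereas at P28 Gabra3 was highest there, and their part in its level was not tested. The sum of the 6 mossy cell markers was 40.3, 34.6 and 38.9 CPM at P10 and 36.2, 49.2 and 34.5 at P28. Cajal-Retzius markers summed to 42.5, 38.6 and 44.5 CPM at P10 and 16.4, 26.4 and 16.2 at P28. Newborn neuron markers summed to 1730, 1254 and 1779 CPM at P10 and 773, 802 and 767 at P28. In these lists replicate 2 was the lowest at P10 and the highest at P28, as Gabra3 was. In the lists not given here it was not the lowest at P10, and no link to Gabra3 was tested.

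**Figure D2:**
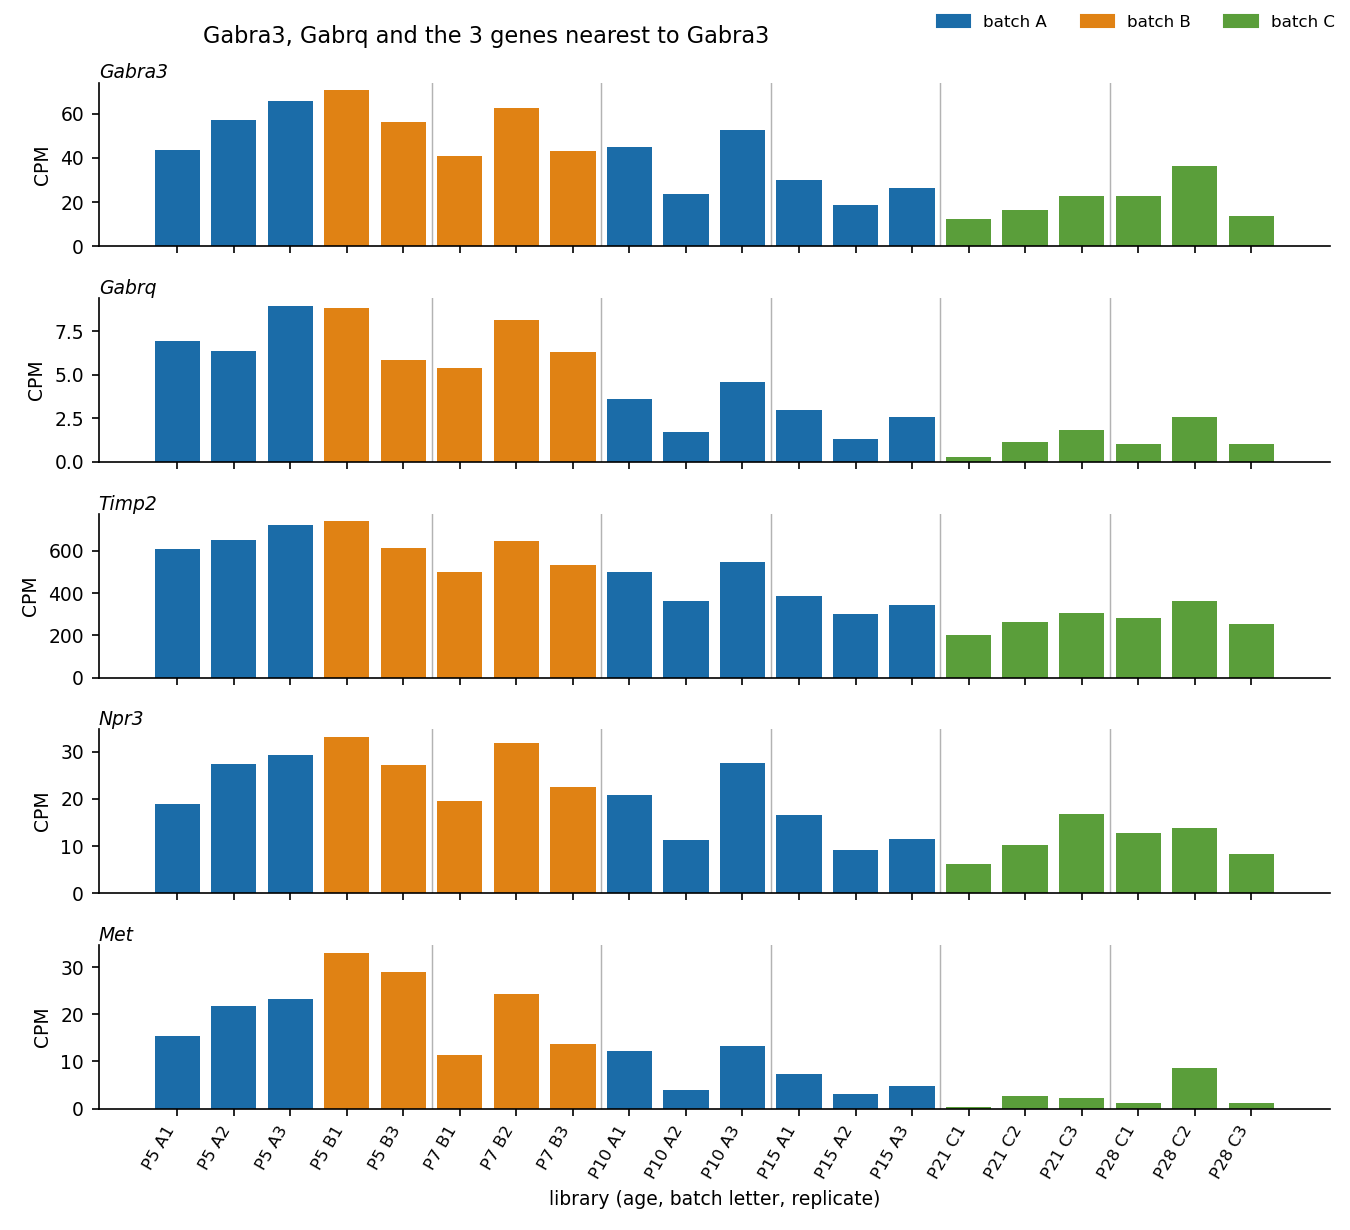
Level in CPM (linear axes from 0) of Gabra3, of Gabrq and of the 3 genes nearest to Gabra3 in pattern, as 1 bar for each of the 20 libraries in order of age, coloured by batch. P10 replicate 2 is the lowest of its age for Gabra3, at 23.4 CPM, and for Gabrq, and P28 replicate 2 is the highest of its age for both, with Gabra3 at 36.1 CPM. The 3 nearest genes were chosen for their likeness over these libraries.

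Set together, 2 members rose and 3 fell at P10 against P5, where 61.4% of all genes passed (30.8% higher and 30.6% lower). At P15 against P5 Gabrd and Gabra4 rose and Gabra5, Gabrg3, Gabrg1 and Gabra3 fell, with 63.4% of all genes called (31.6% higher and 31.8% lower). At P28 against P5 Gabra2 joined those that rose, so that 3 rose and 4 fell, with 71.6% of all genes called (35.2% higher and 36.4% lower). These shares of called genes are large, so the counts of members lie near the background. The median log2 change of the 7 was -0.23 at P15 and -0.91 at P28, against -0.02 and -0.01 for all genes tested. Of the single steps, P7 against P5 had 2 members higher (11% of all genes called, 6.15% higher and 4.89% lower) and P10 against P7 also had 2 higher (42.8% called, 22.5% higher and 20.3% lower). P15 against P10 had 1 lower (4.36% called, 1.84% higher and 2.52% lower). P21 against P15 had 2 higher, Gabrd and Gabra2, and 2 lower, Gabra5 and Gabrg3 (28.8% called, 14% higher and 14.8% lower). At P28 against P21 edgeR called 0 members and 0.254% of all genes (0.065% higher and 0.189% lower), DESeq2 and limma-voom also called 0 members, and 2 members, Gabra5 and Gabrg1, had an unadjusted edgeR p under 0.05 (0.0166 each). With the spectrin covariate 3 members passed at P10, 4 at P15 and 6 at P28 against P5, and Gabrd and Gabra4 were among them at each age. The same fit called 3481, 3049 and 4887 of the 15373 genes at P10, P15 and P28 against P5.

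**Figure D3:**
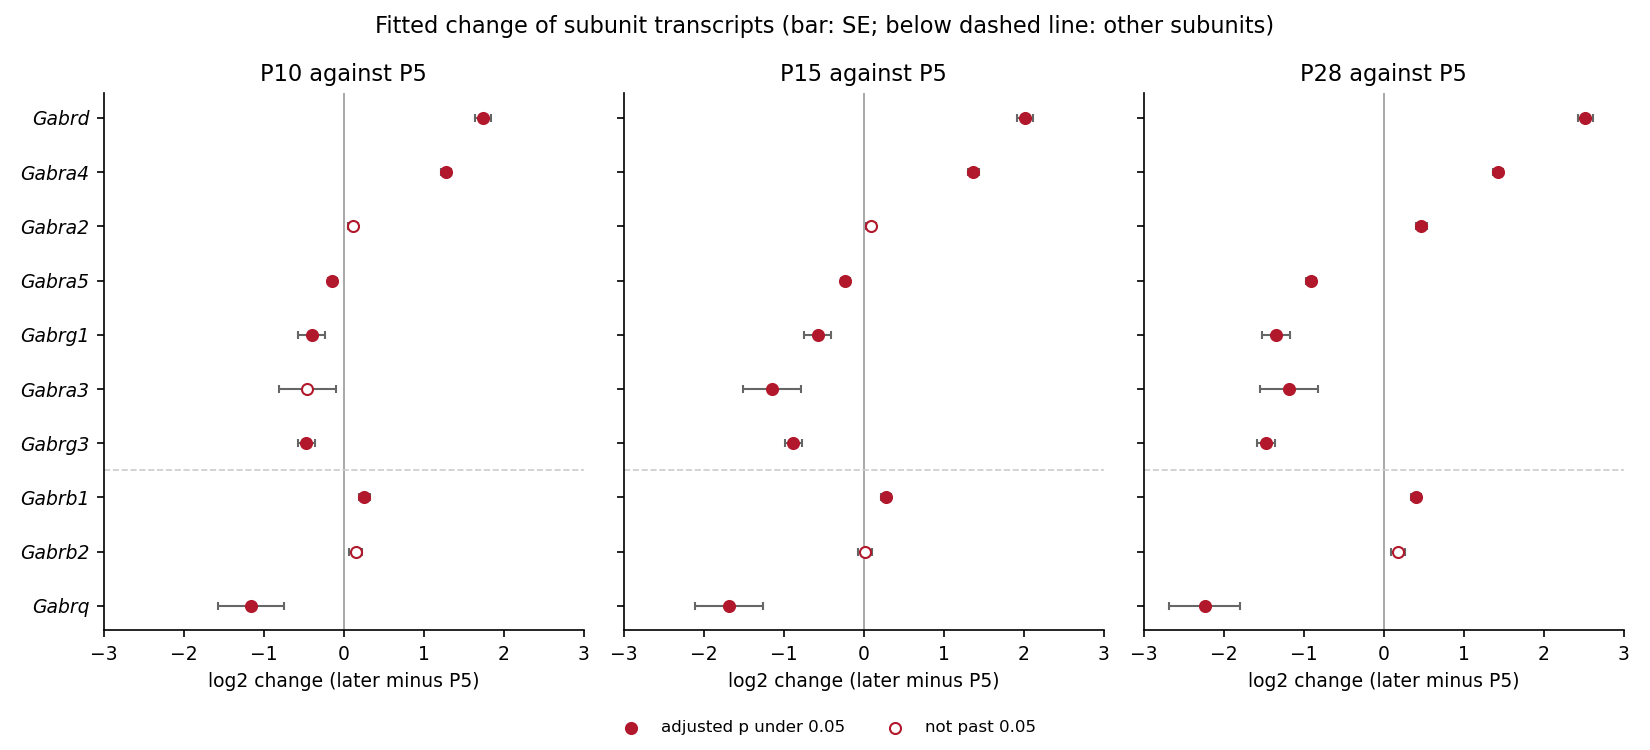
Fitted log2 change (points, with the SE as bars) of the 7 members and, below the dashed line, of 3 other subunit genes at P10, P15 and P28 against P5, with filled points for an adjusted p under 0.05. Gabrd and Gabra4 lie to the right of 0 in all 3 panels, at 2.52 and 1.43 for P28, and Gabra5, Gabrg1, Gabra3 and Gabrg3 lie to the left.

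Other subunit genes were read beside the members. Gabrb1, the beta subunit gene next to Gabra4, rose at P28 against P5, with 192 ± 2.51 CPM at P28 and 148 ± 8.54 at P5 (log2 change 0.40, SE 0.06, edgeR adjusted p = 5.52e-06). Its call was lost with the spectrin covariate (0.37, edgeR adjusted p = 0.1). Gabrb2, which encodes another beta subunit, had 72.3 ± 4.51 CPM at P28 and 73.4 ± 13.9 at P5 and did not pass (log2 change 0.18, SE 0.08, edgeR adjusted p = 0.0602). At P5 it averaged 63.9 CPM in batch A, with which P28 is in effect compared, and 87.6 in batch B. On chromosome 5 the neighbours thus ended apart, with log2 changes at P28 against P5 of -1.35 for Gabrg1, 0.47 for Gabra2, 1.43 for Gabra4 and 0.40 for Gabrb1, whereas on chromosome 7 both members fell, with -1.47 for Gabrg3 and -0.91 for Gabra5. Annotated exons of Gabra4 and Gabrb1 overlap by 46 bases on opposite strands and those of Gabra5 and the antisense gene Gm9962 by 148 bases. The strand setting of the counting is not given in the sources used here, so reads there cannot be told apart.

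As shares of the alpha transcripts per kb, Gabra5 made up 71.0 ± 1.54% at P5, 67.3 ± 3.18% at P7 and 59.7 ± 2.34% at P10 (SD, n = 5 at P5 and 3 at the other ages). It then made up 59.0 ± 0.98% at P15, 48.8 ± 1.38% at P21 and finally 45.5 ± 1.47% at P28. Its share was lower at each later age on average, with the smallest step between P10 and P15. Gabra4 took 21.6 ± 0.92% at P28 and 7.08 ± 0.55% at P5. Gabra2 had 8.62 ± 0.27% at P28 and 4.80 ± 0.62% at P5, and Gabra3 had 4.53 ± 2.04% at P28 and 9.52 ± 1.74% at P5. The level of Gabra4 per kb was 0.47 ± 0.01 of that of Gabra5 at P28 and 0.10 ± 0.01 at P5. Among the gamma and delta transcripts, Gabrd took 36.1 ± 1.03% at P28 and 14.9 ± 3.16% at P5, Gabrg3 1.20 ± 0.12% at P28 and 6.87 ± 0.49% at P5, and Gabrg1 0.60 ± 0.03% at P28 and 2.86 ± 0.41% at P5. Gabrd thus stood at 30.4 ± 2.91 times the level of Gabrg3 per kb at P28 and 2.16 ± 0.35 times at P5. In sum, alpha transcripts came to 135 ± 3.65 CPM per kb at P28 and 157 ± 6.67 at P5, and gamma and delta transcripts to 67.5 ± 3.45 at P28 and 32.8 ± 1.36 at P5. The alpha sum did not fall steadily, with 137 at P7, 175 at P10, 167 at P15 and 140 at P21 on average. The shares are descriptions and were not tested.

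**Figure D4:**
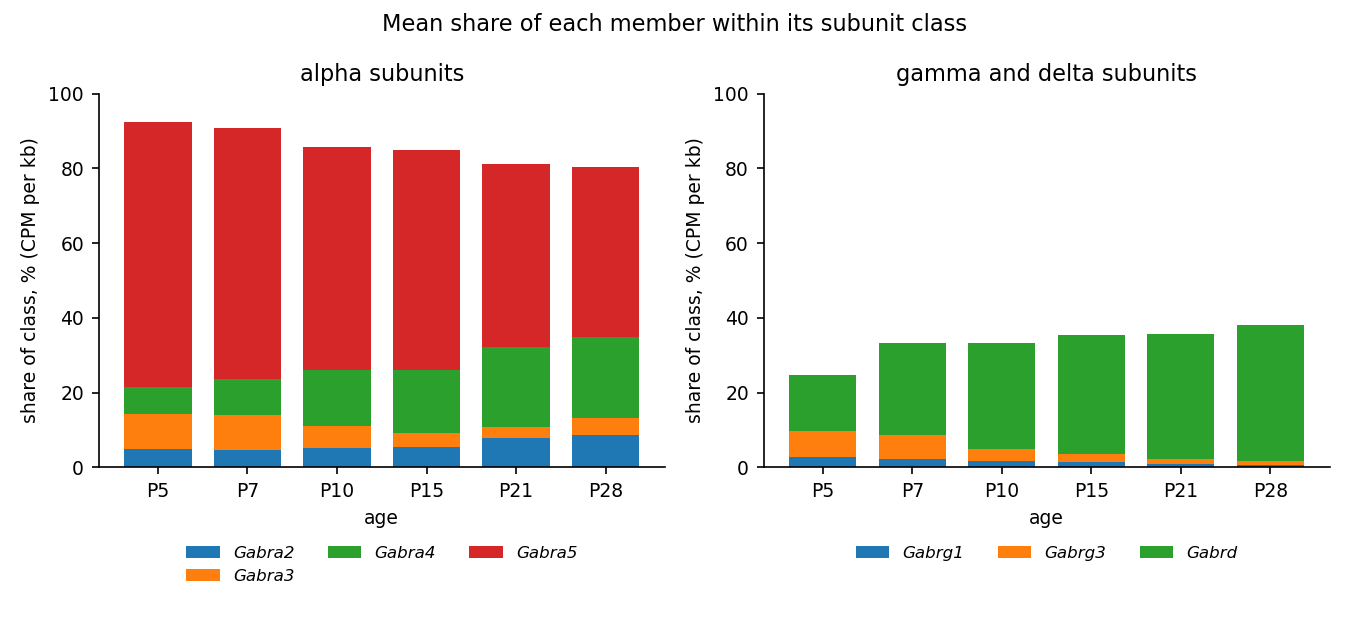
Mean share of each member's transcript, in percent of the summed CPM per kb of all subunits of its class, as stacked bars at 6 ages for the alpha class and the gamma with delta class (n = 5 libraries at P5 and 3 at the other ages). The space above the bars is the rest of the class. The Gabra5 share goes down to 45.5% at P28 and the Gabrd share goes up to 36.1%.

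The genes nearest to the other members in pattern were found in the same way, over 20 libraries that share ages and batches, so their course over age and batch follows from the choice. For Gabrd they were Nmt1 (Pearson's r of log2 CPM 0.997), an enzyme that attaches myristate to proteins, Trpc6 (0.996), a cation channel of the granule cell marker list, and Bhlhe41 (0.995), a transcription factor. Trpc6 averaged 47.0 CPM at P28 and 5.67 at P5, and Bhlhe41 57.2 at P28 and 8.19 at P5. For Gabra4 they were Ppp3r1, the regulatory subunit of calcineurin, and Wasf1 and Abi1 of the actin-regulating WAVE complex (r of 0.996, 0.995 and 0.995). Abi1 averaged 104 CPM at P5, 120 at P7 and 200.2 at P10. For Gabrg3 they were Coro2a, Sestd1 and Ttc9 (0.99 each), and for Gabra5 Arxes1, Ttyh3 and Dda1 (0.97, 0.97 and 0.96). For Gabra2 they were Cd164, Pnrc2 and Naa30 (0.97, 0.96 and 0.96). Cd164, which encodes a sialomucin, averaged 12.9 CPM in batch B and 21.5 in batch A at P5. For Gabrg1 they were Efna2, Sppl2b and Elovl2 (0.93, 0.90 and 0.90).

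Genes that anchor, assemble or move GABA-A receptors were read beside the members, as a list of 20 genes that all passed the filter. At P28 against P5 10 rose and 5 fell, with a median log2 change of 0.22, where 35.2% of all genes tested were higher and 36.4% lower, with a median of -0.01. At P15 against P5 11 rose and 2 fell, with a median of 0.14, where 31.6% of all genes were higher and 31.8% lower, with a median of -0.02. Of those with the smallest p over all ages, Nsf, Gabarapl1 and Trak2 are described. Nsf, an ATPase of membrane fusion, averaged 2038 ± 28.7 CPM at P28 and 844 ± 191 at P5 (log2 change 1.53, SE 0.07, edgeR adjusted p = 1.02e-15). Gabarapl1, of the GABARAP family, averaged 655 ± 12.4 CPM at P28 and 258 ± 26.5 at P5 (1.45, SE 0.07, edgeR adjusted p = 1.04e-14). Trak2, an adaptor of kinesin motors, peaked at P15 with 272 ± 15.8 CPM, against 142 ± 17.6 at P5 (log2 change at P15 1.06, SE 0.07, edgeR adjusted p = 2e-12). The P5 means were split by batch, with Nsf at 705 CPM in batch A and 1053 in batch B. Gabarapl1 had 240 and 285, and Trak2 130 and 160. The fitted changes are in effect against batch A. Gphn, which encodes the scaffold gephyrin, fell at P28 against P5 (log2 change -0.23, SE 0.06, edgeR adjusted p = 0.00234), and is named here after its values were seen.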

How the data were processed

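Per the labels' protocols, HA-tagged ribosomes were pulled from mouse hippocampal lysate and poly-A RNA was made into stranded libraries. The authors deposited raw counts per gene symbol with no normalization. Per the submitters' processing notes, reads were handled with SAMtools 1.10, STAR 2.7.5b and featureCounts, on the build mm10. What annotation and strand setting were used is not given in the sources used here, nor is the treatment of reads mapping to several places. Of 32245 symbols 31424 (97.5%) matched GENCODE vM21, the source of coordinates and exon lengths.

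Tests ran in R 4.3.3 with edgeR 4.0.16 (TMM factors, filterByExpr by age, robust quasi-likelihood fits, 15373 genes, Benjamini-Hochberg adjustment over all of them, threshold 0.05). The design had 6 age means plus a batch B term, with 13 residual degrees of freedom and a biological coefficient of variation of 8.46%. P10 and later ages are thus compared in effect with P5 libraries of batch A, and P7 with those of batch B, while means at P5 are over all 5. CPM are counts over TMM-scaled totals, and per kb they are divided by the union of exons. SE is the log2 change divided by the root of F. The test was checked on simulated counts. Intervals and floors cover counting error only. All 25 pairs of same-age libraries differed by more than sampling noise (chi-square over its degrees of freedom 3.85 to 43.5), so each counted as 1 sample. The labels do not say that they are separate animals, and p-values then measure only the spread between libraries.

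The members and gene lists were chosen with earlier results of these data known. Named genes are the members, the other subunits, the 4 genes of the anchoring list with the smallest p over all ages, and for each member the 3 with the highest Pearson correlation (log2 CPM with a prior count of 2, without predicted, pseudogene or sex-linked names). Some genes that this rule names are not reported here. Alternatives were DESeq2 size factors, total counts, no filter, a stricter filter (at least 1 CPM in 3 libraries), DESeq2 1.42.0, limma-voom (limma 3.58.1), no batch term, a replicate block, the spectrin covariate, P5 of batch B left out, each library left out, other lengths for the shares, and Spearman correlation.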

Additional observations from a re-analysis of the deposited data

How the results depend on the processing

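Over the 10 other settings the members' results kept direction and side of the threshold in 560 of 600 cases (21 lost a call, 11 gained one, 8 turned sign), and with a library left out in 1159 of 1200 (31, 4 and 6). The calls of Gabrd and Gabra4 at P10, P15 and P28 against P5 held in all of them. Deviations of same-numbered libraries correlated at -0.256 to 0.248 (median -0.01, 57 pairs), against -0.256 to 0.317 (median 0.02, 114 pairs) for different numbers. The pairs included ones across batches, so pairing inside a batch was not tested apart. The replicate block gave 1 member at P7 against P5 and 4 at P10 against P5, and 19 genes at P28 against P21, against 39 without it. Total counts shifted the median of all genes to -0.15, -0.14 and -0.14 at P10, P15 and P28 against P5, and to -0.10 at P7. Gabra2 then stood at -0.0205 (P10), -0.0333 (P15) and -0.0376 (P7 against P5), and Gabrb2 at -0.11 (P15).

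Members called at P7 against P5 numbered 1 with DESeq2 size factors or limma-voom, 0 with the spectrin covariate and 4 without P5 of batch B (main 2, and 0 to 3 without single libraries). At P10 against P5 they were 3 without a filter or with the spectrin covariate (main 5, 3 to 5 without single libraries). At P15 against P10 they were 2 with total counts, no filter or DESeq2 and 0 with the covariate (main 1, 0 to 2). At P10 against P7 they were 5 without the batch term or without P5 of batch B (main 2). Genes called at P7 against P5 (main 1698) were 3035 with total counts, 3586 without the batch term, 0 with the covariate, 4573 without P5 of batch B, and 518 and 1020 without P5 batch B replicate 1 or 3, within 518 to 1848 over single libraries. At P15 against P10 (main 670) they were 1007 with DESeq2, 405 without the batch term, 263 with the covariate, and 108 (without P10 replicate 3) to 1473 (without P10 replicate 2), with 209 without P10 replicate 1, 243 without P15 replicate 2 and 127 without P15 replicate 3. At P28 against P21 (main 39) they were 64 without a filter, 165 with DESeq2, 19 with limma-voom, 11 without the batch term, 13 with the covariate, and 9 to 55 without single libraries (9 to 25 without P5 batch A replicate 2 or 3, P15 replicate 2, P21 replicate 2 or 3, or any P28 library). With the covariate 3481, 3049 and 4887 genes passed at P10, P15 and P28 against P5 (main 9442, 9747 and 11013), and 3051 for the step difference (main 5664).

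Signs turned for Gabra2 at P7 against P5 (-0.21 without the batch term, -0.37 without P5 of batch B) and P15 against P10 (0.0305 with the covariate, -0.0669 to 0.011 without single libraries), for Gabra3 with the covariate (0.34 at P10 and 0.53 at P7 against P5), and for Gabrb2 without the batch term (-0.19 at P15 and -0.0234 at P28 against P5), with the covariate (-0.0174 at P15) or without single libraries (-0.0836 to 0.096 at P15). Without single libraries they turned for Gabra4 (-0.0961 to 0.0174) and Gabrg3 (-0.2144 to 0.0128) at P28 against P21 and Gabrg1 (-0.1631 to 0.0942) at P7 against P5. The cause was not tested.

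With the longest coding transcript as length the Gabra5 share was 39.1% at P28 and 67.1% at P5 and the Gabrd share 36.7% at P28 and 15.3% at P5. Without division by length Gabra5 had 27.4% at P28 and 55.0% at P5, and Gabrd 21.2% at P28 and 7.23% at P5. By Spearman correlation 0 to 2 of the 3 nearest genes of a member were the same. Depth limits Gabrg1 most.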

Other observations

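The remaining subunit genes had few counts. Gabrr1, which encodes rho1 and passed the filter, had 2 to 15 counts per library, with 0.28 ± 0.12 CPM at P28 and 0.59 ± 0.17 at P5 (SD, n = 3 and 5), and did not pass between ages (edgeR adjusted p = 0.269). Gabre, which encodes epsilon and lies beside Gabra3, had 0 to 9 counts per library, with 8 counts over the P28 libraries and 23 over the P5 libraries. Gabra6, which is known from cerebellar granule cells, had at most 3 counts in a library and 0 over the P28 libraries. Gabrr2 had at most 6 counts in a library, and Gabrp and Gabrr3 at most 2.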
